A study of Mus musculus with 16 samples.

Results

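The baseline transcriptome of vehicle PyMT tumours was described in 4 transplanted mouse mammary tumours whose hosts had received vehicle only. They were taken by the treatment named in their labels and are 4 of the 16 tumours of the study, and no treated tumour enters any value. Per the labels, mammary tumours of the genotype MMTV-PyMT were taken from mice aged 12 weeks and grafted into a mammary fat pad (the 4th) of FVB hosts. The hosts then received anti-PD-L1 antibody, sonidegib (an inhibitor of Smoothened), both agents or vehicle for 28 days, with 4 tumours in each of the 4 arms. The design text calls the tumours a TNBC model, that is triple-negative breast cancer, and names primary growth and immune infiltration as its question.

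The transgene places the middle T antigen of mouse polyomavirus under the promoter of the mouse mammary tumour virus, which is active in mammary epithelium. Tumour cells therefore carry the transgene, and vessels, fibroblasts, fat, muscle and immune cells can stem from the host or from tissue carried over with the graft. The labels number the tumours and name no donor, litter or batch, so whether they stem from a single donor tumour or from several is not known. What the vehicle was is not given in the sources used here, and the transcript of the transgene was not analysed here.

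The mammary epithelium has luminal cells, which line the ducts and make milk in the alveoli, and basal cells, which contract to eject it. Prolactin acting through Stat5, together with the factor Elf5, switches on the milk protein genes. Middle T sits at the inner face of the cell membrane and gathers protein phosphatase 2A, kinases of the Src family, Shc and phosphatidylinositol 3-kinase, which feed growth and survival signals. Tumours driven by it are known for a luminal origin and for a stroma rich in macrophages.

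Expression was given as FPKM, the fragments counted for a gene per kilobase of its transcript and per M (mega) fragments mapped, so levels can be set side by side between genes. Of 55146 genes, 13107, 13482, 11361 and 13970 reached 1 FPKM in tumours 1, 2, 3 and 4, and 10949 (19.9%) did so in every tumour. Among 21688 protein-coding genes, 9606 (44.3%) reached 1 FPKM in every tumour, and 3453 were listed at 0 in all of them. Each count of list or family members at 1 FPKM given below is to be set beside that share of 44.3%. The estimated depth was 38.7, 35.6, 34.4 and 47.4 M fragments, which makes 1 fragment on a transcript of 2 kb worth 0.0143, 0.0156, 0.0162 and 0.0117 FPKM. Values are given throughout in the order of tumours 1 to 4.

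Tumour 3 stood apart in the scale of its values. It was the lowest of the 4 for 81.8% of the 13332 genes that averaged 1 FPKM or more, and after median-of-ratios scaling, which sets the typical gene equal between tumours, for 24.3%. The scaling factors were 1.14, 1.12, 0.583 and 1.32. A family of predicted genes with satellite-like sequence, led by Gm10800, summed to 145178, 10493, 302167 and 22764 FPKM, so tumour 3 had the highest sum. Its part in the low values of tumour 3 was not tested. The rank correlation of the tumours over genes, a description within these libraries, ran between 0.830 for tumours 3 and 4 and 0.931 for tumours 2 and 3. Tumour 4 had the lowest correlation with each other tumour, at 0.873, 0.856 and 0.830 with tumours 1, 2 and 3. For tumours 1 and 3 it was 0.915.

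Short structural RNAs, and in tumours 1 and 3 also satellite-like predicted genes, stood highest on the FPKM scale. The 10 most abundant genes of each tumour held 49.7% ± 7.06 of its summed FPKM (SD, n = 4). In tumours 1 and 3 that share included Gm10800, which stood above each structural RNA named below in tumour 3. The satellite-like family summed to 145178 FPKM in tumour 1 and 302167 FPKM in tumour 3. Genes annotated as coding held 37.1%, 20.2%, 28.7% and 36.5%, with the satellite-like predicted genes counted among them. Named nuclear coding genes, which leave out predicted ones, summed to 290984, 231385, 138473 and 270986 FPKM, lowest in tumour 3. All genes summed to 1207630, 1232800, 1556560 and 866512 FPKM. Rpph1, the RNA of ribonuclease P, stood at 85440.4, 80733, 142948 and 20168 FPKM and Rnu1a1, a U1 RNA of the spliceosome, at 68788, 93332, 106784 and 43985 FPKM. Both were lowest in tumour 4 and highest in tumour 3. Rmrp, the RNA of the related ribonuclease MRP, had 11083, 30954, 40501 and 4018 FPKM. A label names polyadenylated RNA and the protocol names depletion of ribosomal RNA; Rpph1, Rmrp and U1 carry no poly(A) tail and were among the highest values. Rnu1a1 and Gm22068, with 68159, 93324, 106464 and 44066 FPKM, had almost the same values, and fragments of such near-identical copies cannot be assigned with certainty. Rn7s6, an RNA of the signal recognition particle, was listed at 0, 153542, 0 and 61962 FPKM, and Rn7sk, a regulator of transcript elongation, at 0, 0, 0 and 79054. Such zeros can be failed estimates; 20 genes were listed at 0 in some tumour with a median of at least 10 FPKM, and 0 of these were protein-coding.

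Among named nuclear coding genes, secreted proteins of the gland stood at the top, and 4 genes passed 1000 FPKM in every tumour: Trf, Lcn2, Csn3 and Actb. Trf, transferrin, the iron carrier of blood and milk, was the highest with 9626, 6483, 3653 and 1934 FPKM. Tumour 1 was highest and tumour 4 lowest. Lcn2, lipocalin 2, which captures bacterial iron carriers and is abundant in many carcinomas, had 3642, 2539.6, 1337 and 2908 FPKM. Csn3, kappa-casein, which stabilises casein micelles, had 2516, 2373, 1790.00 and 4676 FPKM and was highest in tumour 4, where Trf was lowest.

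**Figure D1:**
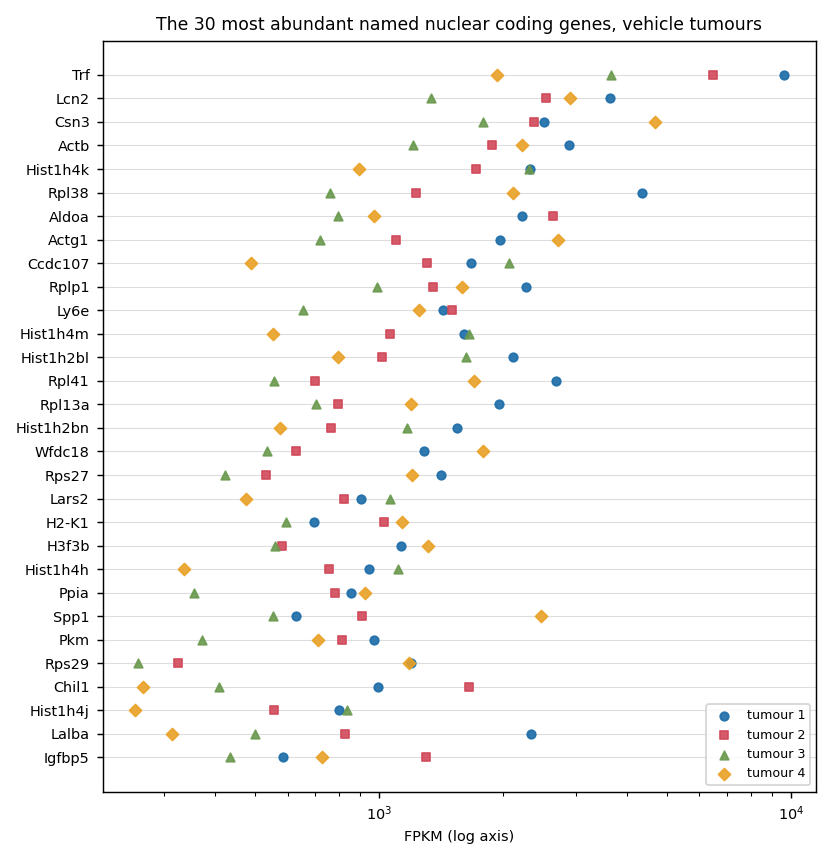
FPKM on a log axis of the 30 named nuclear protein-coding genes with the highest median, 1 marker per vehicle tumour. Trf leads with 1934 to 9626 FPKM, tumour 3 lies lowest for most of the ribosomal and actin genes, and tumour 4 lies lowest for the histone genes.

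Housekeeping genes filled much of the rest of the top 30. Actb and Actg1, the cytoplasmic actins, had 2896, 1878, 1208 and 2228 FPKM for Actb and 1965, 1098, 716 and 2726 FPKM for Actg1, and tumour 3 was lowest for both. Aldoa, aldolase of glycolysis, had 2219.7, 2644, 795 and 969 FPKM, with the higher values in tumours 1 and 2, and Pkm, pyruvate kinase, had 971, 811, 371 and 711 FPKM. Ribosomal protein genes such as Rpl38, with 4360.2, 1229, 761 and 2119.9 FPKM, and Rpl41, with 2684, 698, 555 and 1699.5 FPKM, were highest in tumour 1 and lowest in tumour 3. Replication-dependent histone genes formed another block of 6 among these 30 genes. Hist1h4k, which encodes histone H4, had 2321, 1717, 2318 and 895 FPKM and Hist1h2bl, which encodes an H2B, had 2119.9, 1014, 1629.9 and 793 FPKM. Tumour 4 was lowest for each of the 6 histone genes, and copies of a histone gene share most of their sequence. Ccdc107, with 1669, 1309, 2065 and 489 FPKM, overlaps Rmrp on the other strand and followed its order only in part, being lowest in tumour 4 and highest in tumour 3. Ly6e, a surface protein inducible by interferon, had 1428, 1499.8, 652 and 1252 FPKM. Spp1, osteopontin, a secreted matrix and cytokine protein, had 628, 907, 552 and 2472 FPKM and stood highest in tumour 4. Chil1, a chitinase-like secreted protein, had 992, 1651, 407 and 266 FPKM and ran the other way, with its lowest value in tumour 4. Igfbp5, which binds insulin-like growth factors and is known from the involuting gland, had 584, 1301, 434 and 726 FPKM.

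Milk genes were expressed unevenly: of 17 genes of alveoli and milk, 11 reached 1 FPKM in every tumour, and 3 stayed under 0.5 FPKM in all of them. Lalba, alpha-lactalbumin, the cofactor of lactose synthesis, had 2332, 826, 498 and 313 FPKM and differed most between tumours 1 and 4. Wfdc18, a proteinase inhibitor gene of the whey acidic protein family, had 1288, 627, 533 and 1790.2 FPKM, with tumour 4 highest and tumour 3 lowest. Mfge8, the milk fat globule protein that bridges dying cells to phagocytes, had 301, 336, 152 and 544 FPKM, and Xdh, xanthine dehydrogenase of the fat globule membrane, had 70.4, 83.8, 39.6 and 71.8 FPKM. Wap, the whey acidic protein itself, was far lower at 20.0, 17.2, 7.79 and 12.8 FPKM. Ltf, lactoferrin, had 130.2, 129, 69.2 and 920.2 FPKM, so that tumour 4 stood well above the others, while Lcn2 did not follow it. The ratio of Lcn2 to Ltf was 28.0, 19.7, 19.3 and 3.16.

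The casein genes lie together on mouse chromosome 5, between 87666208 and 87932665 in GRCm38, and only Csn3 at the far end was abundant. Csn3 occupies positions 87925579 to 87932665 on the plus strand. At the other end, Csn1s1, alpha-casein, at 87666208 to 87682578, had 1.84, 1.18, 1.79 and 9.48 FPKM. Its neighbour Csn2, beta-casein, at 87692624 to 87699630 on the minus strand, had 0.193, 0.0435, 0.667 and 0.453 FPKM, and Csn1s2a and Csn1s2b had 0.501, 0.222, 0.380 and 0.269 FPKM for Csn1s2a and 0.122, 0.328, 0.0756 and 0.312 FPKM for Csn1s2b. Prr27 and Odam, the other coding genes in between, did not pass 0.144 FPKM. The ratio of Csn3 to Csn1s1 was 1365, 2004, 997 and 493. Glycam1, a mucin-like milk protein, lay between 0.0123 and 0.121 FPKM. The regulators of the alveolar program were present: Elf5 had 61.2, 77.3, 26.8 and 70.6 FPKM, Stat5a 18.4, 21.3, 12.5 and 8.94 FPKM and the prolactin receptor gene Prlr 10.7, 9.90, 3.13 and 7.25 FPKM. Tumour 3 was lowest for Elf5 and Prlr, and tumour 4 for Stat5a.

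The promoters of milk genes of high and of low level are set beside each other, since the genes share a tissue and differ in level. Csn3 and Trf, the highest of the milk genes, are not among those shown. Each is the 250 bases before the start in RefSeq's annotation of GRCm38.p6, on the strand of the gene. They are Lalba (chr15:98482684-98482933, minus strand) and Wfdc18 (chr11:83708754-83709003, plus strand) for the higher genes, and Csn1s1 (chr5:87665958-87666207, plus strand) and Csn2 (chr5:87699426-87699675, minus strand) for the lower ones. RefSeq's start of Csn2 lies inside the GENCODE gene, whose first bases the stretch therefore overlaps. Capitals mark TTCNNNGAA, the core of the element that Stat factors bind, and TATAAA, the consensus of the TATA box.
Lalba: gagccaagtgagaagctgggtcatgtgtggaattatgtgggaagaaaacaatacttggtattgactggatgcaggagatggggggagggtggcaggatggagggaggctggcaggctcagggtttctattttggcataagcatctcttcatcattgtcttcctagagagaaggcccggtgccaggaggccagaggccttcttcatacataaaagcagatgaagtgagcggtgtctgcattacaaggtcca
Wfdc18: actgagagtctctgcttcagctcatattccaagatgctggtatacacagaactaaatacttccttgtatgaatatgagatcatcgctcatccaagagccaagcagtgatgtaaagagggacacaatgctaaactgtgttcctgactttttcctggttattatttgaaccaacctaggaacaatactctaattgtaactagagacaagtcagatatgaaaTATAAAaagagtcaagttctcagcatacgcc
Csn1s1: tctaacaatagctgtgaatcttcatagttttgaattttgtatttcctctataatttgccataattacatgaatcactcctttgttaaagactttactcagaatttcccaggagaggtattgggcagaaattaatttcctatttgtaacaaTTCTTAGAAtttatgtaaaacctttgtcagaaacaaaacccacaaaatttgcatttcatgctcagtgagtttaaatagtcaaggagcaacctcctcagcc
Csn2: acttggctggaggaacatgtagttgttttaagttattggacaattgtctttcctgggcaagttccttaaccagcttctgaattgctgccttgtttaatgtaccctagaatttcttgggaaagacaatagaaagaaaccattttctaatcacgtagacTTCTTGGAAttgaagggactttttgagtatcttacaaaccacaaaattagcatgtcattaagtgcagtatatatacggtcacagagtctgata
TTCNNNGAA reads the same on both strands. It begins 100 bases before the start of Csn1s1 and 93 bases before that of Csn2, and it is in neither the Lalba nor the Wfdc18 stretch. TATAAA begins 31 bases before the start of Wfdc18. In windows running to 50 bases past the start, TTCNNNGAA was present in 4 of 13 promoters of 12 milk genes and in 8.30% of 32851 mouse promoters, and TATAAA on either strand in 1 of the 13 and in 13.6% of all. Csn1s2a and Glycam1 hold the other matches to TTCNNNGAA. A match is a run of letters and not a shown binding site.

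**Figure D2:**
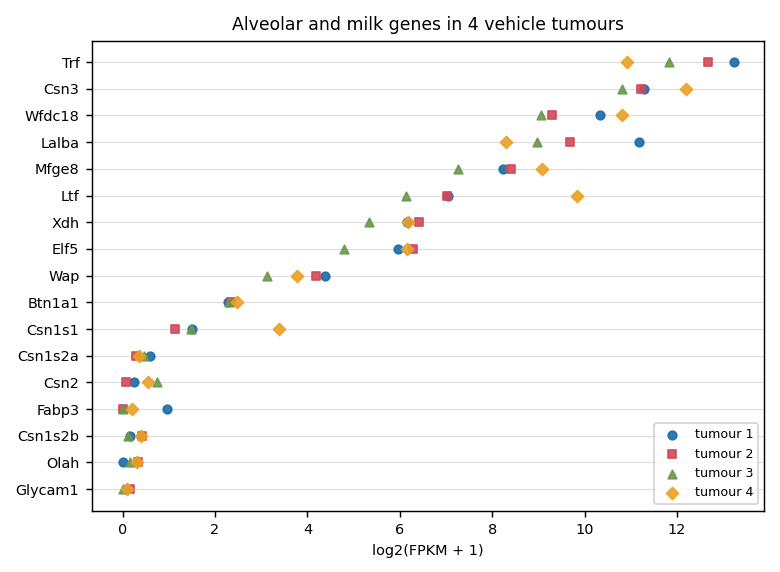
log2(FPKM + 1) of the 17 alveolar and milk genes, 1 marker per vehicle tumour. Trf, Csn3, Wfdc18 and Lalba lie at the top, Csn1s1, Csn1s2a, Csn2 and Csn1s2b near the bottom, and Ltf and Csn1s1 have tumour 4 apart from the other tumours.

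Luminal genes stood well above basal genes in every tumour. The luminal list averaged 5.12 ± 0.72 and the basal list 1.72 ± 0.19 as mean log2(FPKM + 1), a difference of 3.40 ± 0.55 (SD, n = 4) that was positive in 4 of 4 tumours. In bulk tissue, fewer cells of a type and less RNA per cell cannot be told apart. Of 18 luminal genes, 16 reached 1 FPKM in every tumour, as did 5 of 12 basal genes. Krt8 and Krt18, the paired keratins of simple epithelium, had 670.1, 322, 172 and 663 FPKM for Krt8 and 671, 324, 158 and 729 FPKM for Krt18. Their ratio stayed between 0.909 and 1.08, and tumour 3 was lowest for both. Epcam, an adhesion protein of epithelia, had 223, 208, 83.8 and 423 FPKM and the tight junction gene Cldn3 284, 159.8, 79.6 and 275 FPKM. Cdh1, E-cadherin, had 70.5, 75.1, 35.0 and 89.7 FPKM, with tumour 4 highest and tumour 3 lowest. Tumour 3 was the lowest for 17 of the 18 luminal genes and tumour 4 the highest for 11. Over all 13332 genes with a mean of at least 1 FPKM, tumour 3 was the lowest for 81.8% and tumour 4 the highest for 48.4%.

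Some luminal genes set tumour 4 apart. Krt7 had 32.1, 17.3, 14.96 and 111 FPKM and Aldh1a3, a retinaldehyde dehydrogenase of luminal progenitors, 1.76, 1.34, 0.956 and 15.3 FPKM. In both genes tumour 4 was the highest. Spdef, an Ets factor of secretory cells, had 3.86, 3.41, 1.91 and 0.415 FPKM and was lowest in tumour 4. Prom1, a membrane protein of luminal cells, had 29.3, 27.7, 9.60 and 14.9 FPKM and was highest in tumours 1 and 2.

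Basal keratins were low. Krt5 had 1.82, 1.52, 1.62 and 1.37 FPKM and Krt14 8.30, 8.94, 8.24 and 22.8 FPKM, so that Krt14 was highest in tumour 4 and the other 3 tumours lay together. The ratio of Krt8 to Krt5 ran between 106 in tumour 3 and 483 in tumour 4. Trp63, the factor that defines basal cells, had 0.880, 0.876, 0.636 and 1.02 FPKM. Itgb4, the beta chain of the hemidesmosome integrin, was the exception with 119, 76.5, 68.9 and 53.3 FPKM, and Col17a1, another hemidesmosome protein, stayed at 0.153, 0.504, 0.307 and 0.327 FPKM. Contractile genes of myoepithelium and smooth muscle were also low: Acta2, smooth muscle actin, had 8.96, 6.17, 6.30 and 13.2 FPKM and Myh11, its myosin heavy chain, 0.197, 0.121, 0.0888 and 0.262 FPKM. Mylk, myosin light chain kinase, had 2.50, 18.9, 1.29 and 1.303 FPKM, high in tumour 2 only. Cornified skin genes were near 0, and Krt1, Lor, Ivl and Krt13 did not pass 0.0997 FPKM. Of all 49 keratin genes, 9 reached 1 FPKM in every tumour and 36 stayed under 0.5.

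**Figure D3:**
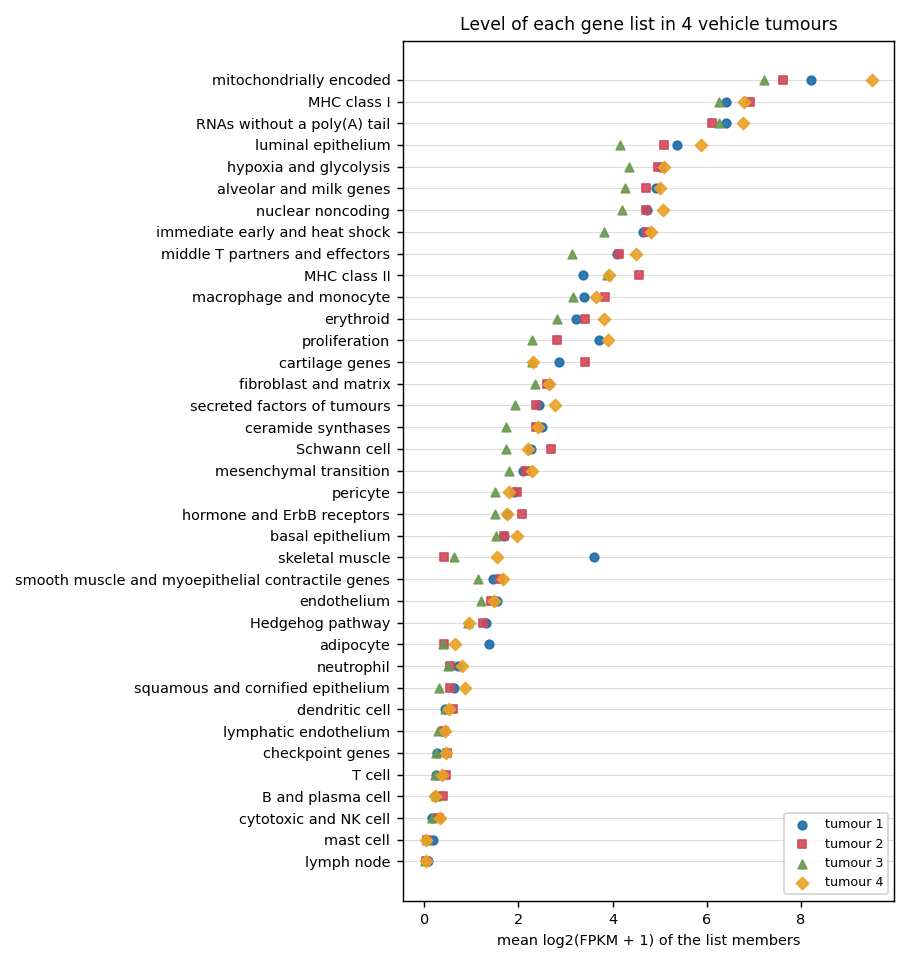
Level of each gene list as the mean log2(FPKM + 1) of its members, 1 marker per vehicle tumour, ordered by the mean. Mitochondrially encoded and MHC class I genes lie highest, luminal epithelium lies above basal epithelium in each tumour, and lymphocyte lists lie near 0.

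The receptors that define clinical subtypes were low or moderate. Esr1, the oestrogen receptor, had 1.52, 2.61, 1.40 and 1.69 FPKM, highest in tumour 2. Pgr, the progesterone receptor and a target of Esr1, had 0.00904, 0.0201, 0.00545 and 0.0333 FPKM, and Foxa1, the pioneer factor of hormone-responsive luminal cells, did not pass 0.0414 FPKM. Greb1, another oestrogen target, did not pass 0.280 FPKM. Erbb2, the gene amplified in HER2-positive human breast cancer, was present at 15.1, 19.6, 10.4 and 9.99 FPKM, Erbb3 at 25.8, 27.1, 13.3 and 26.7 FPKM and Egfr at 21.6, 35.6, 16.6 and 17.3 FPKM. Gata3, the factor of luminal identity, stood at 28.8, 54.2, 17.2 and 32.4 FPKM, with tumour 2 highest. Levels of RNA do not give receptor protein, and no protein was measured in these libraries.

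Factors known from neural crest and cartilage, Sox10, Sox9, Sox5 and Sox6, reached 1 FPKM in every tumour. Sox10, the factor of neural crest and of glia, also known in mammary stem-like cells, had 53.0, 71.7, 38.8 and 44.0 FPKM. Of 7 Schwann cell genes, 4 (57.1%) reached 1 FPKM in every tumour and 3 stayed under 0.5, against 44.3% of all protein-coding genes at 1 FPKM. Ngfr, a neurotrophin receptor of Schwann cells, was among the low ones and did not pass 0.0379 FPKM. S100b, a calcium-binding protein shared by glia and cartilage cells, had 18.5, 43.6, 5.27 and 6.78 FPKM, and tumour 2 was highest for both Sox10 and S100b. Sox9, which directs cartilage formation and is present in mammary progenitors, had 36.4, 73.5, 19.3 and 30.9 FPKM. Its partners Sox5 and Sox6 had 12.3, 20.0, 12.7 and 8.13 FPKM for Sox5 and 3.65, 2.70, 1.15 and 9.88 FPKM for Sox6.

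Col11a1, a fibril collagen of cartilage, was the most abundant of 44 collagen genes. It stood at 91.7, 228, 97.1 and 89.6 FPKM, which is 2.26, 4.29, 2.31 and 2.93 times Col1a1, the main fibril collagen of fibroblasts. Tumour 2 was highest and the other 3 lay close together. Col9a1, Col9a2 and Col9a3, the chains of collagen IX, had 80.4, 81.9, 57.7 and 35.9 FPKM for Col9a1, 75.1, 110.4, 37.2 and 41.5 FPKM for Col9a2 and 31.7, 40.4, 19.5 and 18.9 FPKM for Col9a3. Col2a1, the chief collagen of cartilage, had 17.8, 83.8, 9.33 and 3.34 FPKM with tumour 2 far above and tumour 4 lowest. Chad and Comp, matrix proteins of cartilage, had 3.53, 10.9, 1.61 and 0.225 FPKM for Chad and 5.93, 8.40, 1.22 and 0.163 FPKM for Comp and were highest in tumour 2 and lowest in tumour 4. Acan, the proteoglycan that fills cartilage, did not pass 0.224 FPKM, Hapln1 did not pass 0.0414 and Matn1 did not pass 0.0133. Of 23 cartilage genes, chosen after their levels were seen, 11 (47.8%) reached 1 FPKM in every tumour and 5 stayed under 0.5. Among all protein-coding genes, 44.3% reached 1 FPKM in every tumour.

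**Figure D4:**
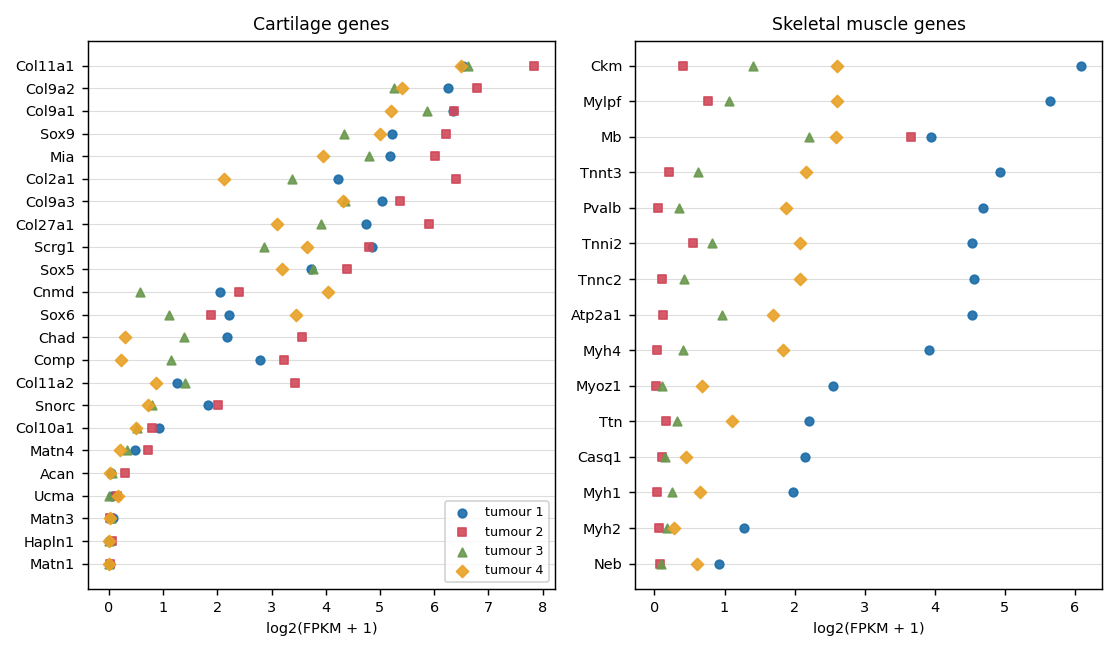
log2(FPKM + 1) of 23 cartilage genes (left) and 15 skeletal muscle genes (right), 1 marker per vehicle tumour. Col11a1 and the collagen IX genes are high in every tumour with Acan, Hapln1 and Matn1 near 0, and all muscle genes are highest in tumour 1.

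Most partners and effectors of middle T were expressed: 20 of 22 (90.9%) reached 1 FPKM in every tumour, against 44.3% of all protein-coding genes. Ppp2r1a, the scaffold subunit of protein phosphatase 2A, had 87.8, 78.4, 44.1 and 70.3 FPKM, and Ppp2ca, its catalytic subunit, 15.6, 12.4, 4.58 and 27.6 FPKM. Src had 27.8, 28.0, 15.3 and 24.0 FPKM, above the related kinases Yes1, with 3.22, 5.36, 2.29 and 10.1 FPKM, and Fyn, with 2.78, 2.92, 1.76 and 4.66 FPKM. Shc1 and Grb2, adaptors that lead to Ras, had 25.3, 25.5, 17.3 and 24.6 FPKM for Shc1 and 42.5, 49.6, 17.2 and 36.3 FPKM for Grb2. Pik3r1, the regulatory subunit of phosphatidylinositol 3-kinase, had 27.4, 47.1, 17.2 and 81.9 FPKM, and the catalytic Pik3ca had 2.373, 2.86, 0.893 and 7.66 FPKM; tumour 4 was highest and tumour 3 lowest for both. Akt1, the kinase downstream, had 55.9, 48.6, 36.6 and 48.7 FPKM. Yap1 and Wwtr1, growth regulators that middle T also engages, had 23.0, 25.3, 10.6 and 25.3 FPKM for Yap1 and 11.3, 11.8, 5.93 and 21.1 FPKM for Wwtr1. Tumour 3 was the lowest for each gene of this list, as it was for 81.8% of the 13332 genes with a mean of at least 1 FPKM before scaling and for 24.3% after it. The 14-3-3 gene Ywhaz, whose protein binds middle T, had 96.5, 84.9, 33.9 and 131 FPKM.

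Among other signalling families, Fgfr1 reached 1 FPKM in every tumour, and the other fibroblast growth factor receptor genes, Fgfr2, Fgfr3 and Fgfr4, did not. Fgfr1 had 82.9, 185, 88.9 and 38.6 FPKM, with tumour 2 highest and tumour 4 lowest, while 0 of 22 Fgf ligand genes reached that level in every tumour. Of 19 Wnt ligand genes 2 did, and Wnt5b, a ligand of the noncanonical branch, had 4.54, 8.81, 5.89 and 32.5 FPKM. Notch1 had 26.1, 53.9, 29.95 and 15.8 FPKM, with tumour 2 highest. Stat3 led the 7 Stat genes with 71.3, 73.9, 30.6 and 70.4 FPKM, and 6 of the 7 reached 1 FPKM in every tumour. Ets factors reached it in 16 of 22 cases (72.7%), against 44.3% of all protein-coding genes. Among them was Etv5, a target of Ras signalling, with 37.7, 42.4, 22.6 and 18.0 FPKM. All 39 Hox genes stayed under 0.5 FPKM in every tumour.

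Proliferation genes were present in every tumour and, as a set, stood higher in tumours 1 and 4. Tumour 1 was the highest for 7 of the 21 genes of the list, tumour 2 for 1 and tumour 4 for 13. Over all 13332 genes with a mean of at least 1 FPKM, these tumours were the highest for 24.9%, 24.0% and 48.4%. Of the 21 proliferation genes, 19 (90.5%) reached 1 FPKM in every tumour, against 44.3% of all protein-coding genes. Ccnd1, cyclin D1, had 43.9, 45.6, 24.0 and 39.9 FPKM, and Pcna, the sliding clamp of replication, 31.2, 24.1, 11.8 and 50.8 FPKM. Birc5, survivin, which acts in mitosis and against cell death, had 18.0, 4.81, 3.28 and 40.0 FPKM and Mki67, the Ki-67 antigen, 2.99, 2.95, 1.22 and 8.92 FPKM. Birc5 and Top2a, with 10.9, 6.46, 3.57 and 26.1 FPKM, had tumours 1 and 4 above tumours 2 and 3, and Mki67 was set apart by tumour 4 alone. Myc had 11.4, 8.90, 5.07 and 13.7 FPKM.

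Glycolytic and hypoxia genes varied between tumours about as much as other genes. The median SD of log2(FPKM + 1) was 0.485 for the 18 of 19 genes of the list that averaged 1 FPKM or more, against 0.543 for all 13332 genes at that level. After scaling these were 0.360 and 0.350. Beside Aldoa, Ldha, lactate dehydrogenase, had 879, 698, 381 and 575 FPKM and Slc2a1, the glucose transporter Glut1, 70.7, 93.2, 54.0 and 54.5 FPKM. Car9, a carbonic anhydrase induced by hypoxia, had 28.9, 29.8, 22.7 and 25.8 FPKM, and Vegfa, the endothelial growth factor, 27.9, 28.2, 26.6 and 53.0 FPKM, highest in tumour 4. Of 19 genes of this list, 18 reached 1 FPKM in every tumour. Mitochondrially encoded genes differed more. mt-Co1, a subunit of cytochrome oxidase, had 1818, 774, 507 and 5682 FPKM, and the 13 coding genes summed to 7904, 3846, 3552 and 18642 FPKM. Tumour 4 was the highest for each of the 13.

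Fibroblast genes were moderate. The luminal list stood 2.56 ± 0.59 above the fibroblast and matrix list in mean log2(FPKM + 1) (SD, n = 4), in 4 of 4 tumours, and 19 of 26 fibroblast genes reached 1 FPKM in every tumour. Of the 22 with a mean of at least 1 FPKM, tumour 3 was lowest for 9; over all 13332 genes at that level its share was 81.8%. Col1a1 and Col1a2, the chains of collagen I, had 40.5, 53.1, 42.1 and 30.6 FPKM for Col1a1 and 64.6, 59.4, 61.4 and 34.9 FPKM for Col1a2, and Col3a1 had 34.9, 48.8, 40.3 and 26.5 FPKM. These 3 were lowest in tumour 4. Postn, periostin, and Tnc, tenascin C, both matrix proteins of remodelling tissue, had 7.97, 11.1, 7.75 and 22.4 FPKM for Postn and 11.9, 6.55, 10.03 and 27.3 FPKM for Tnc and were highest in tumour 4. Col6a3 had 15.5, 75.2, 24.6 and 12.7 FPKM, with tumour 2 well above the rest. Pdgfrb and Pdgfra, receptors of mesenchymal cells, had 2.76, 2.52, 2.07 and 2.51 FPKM for Pdgfrb and 1.44, 1.89, 1.46 and 1.66 FPKM for Pdgfra, and Fap stayed at 0.567, 0.248, 0.171 and 0.567 FPKM. Of the genes of mesenchymal transition, Vim, vimentin, had 101, 141, 44.6 and 70.1 FPKM, and Twist1 and Twist2 stayed under 0.5 FPKM.

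Vessel genes were low. The 11 endothelial genes with a mean of at least 1 FPKM had a median SD of log2(FPKM + 1) of 0.232, against 0.543 for all 13332 such genes. After scaling these were 0.244 and 0.350. At levels this low, the 1 added to each value narrows the spread. Of 17 endothelial genes, 9 (52.9%) reached 1 FPKM in every tumour, against 44.3% of all protein-coding genes. Egfl7, a matrix protein that endothelium secretes, had 9.50, 7.23, 8.05 and 7.11 FPKM, and Pecam1 and Cdh5, junction proteins of endothelium, had 4.06, 2.88, 1.90 and 4.65 FPKM for Pecam1 and 3.03, 2.94, 1.83 and 2.52 FPKM for Cdh5. Kdr, the main receptor of Vegfa, had 2.12, 1.82, 0.919 and 1.62 FPKM. Lymphatic genes reached 1 FPKM in every tumour in 0 of 5 cases, with Prox1 at 0.180, 0.282, 0.131 and 0.260 FPKM. Of the pericyte genes, Rgs5 had 2.44, 3.62, 1.22 and 4.71 FPKM and Mcam and Notch3, which other cells also express, had 22.6, 33.7, 15.4 and 13.7 FPKM for Mcam and 13.3, 24.4, 12.4 and 7.85 FPKM for Notch3. Haemoglobin genes of red cells were present, with Hbb-bs at 106, 128, 56.3 and 223 FPKM, highest in tumour 4, and reads of the near-identical globin copies may be shared.

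Skeletal muscle and fat genes marked tumour 1. Ckm, creatine kinase of muscle, had 67.2, 0.329, 1.66 and 5.08 FPKM, Mylpf, a myosin light chain of fast fibres, 49.2, 0.692, 1.09 and 5.08 FPKM and Pvalb, parvalbumin, 24.9, 0.0346, 0.279 and 2.67 FPKM. All 15 muscle genes were highest in tumour 1, and their sum was 284, 13.8, 10.4 and 36.0 FPKM. Mb, myoglobin, was the least uneven with 14.5, 11.6, 3.62 and 5.04 FPKM. Of 13 adipocyte genes 1 reached 1 FPKM in every tumour. Cfd, adipsin, had 12.8, 0, 0.0641 and 0.595 FPKM, Car3, a carbonic anhydrase of fat and muscle, 15.8, 0.0907, 0.717 and 3.11 FPKM and Adipoq, adiponectin, 0.877, 0, 0 and 0.202 FPKM. The adipocyte sum was 42.2, 7.38, 5.50 and 10.5 FPKM. How much host tissue each piece held was not measured.

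Macrophage genes exceeded lymphocyte genes by far. The macrophage list stood 3.18 ± 0.20 above the T cell list in mean log2(FPKM + 1) (SD, n = 4), in 4 of 4 tumours. Of 25 macrophage and monocyte genes, 21 reached 1 FPKM in every tumour, against 0 of 19 T cell genes, 1 of 14 cytotoxic and NK cell genes and 1 of 13 B and plasma cell genes. Apoe, apolipoprotein E of lipid-laden macrophages and other cells, had 184, 461, 232 and 205 FPKM and was highest in tumour 2. C1qa, C1qb and C1qc, the chains of complement C1q, had 64.3, 76.0, 59.9 and 82.8 FPKM for C1qa, 35.0, 49.6, 38.4 and 38.6 FPKM for C1qb and 32.1, 47.1, 35.7 and 40.3 FPKM for C1qc. Csf1r, the receptor for the macrophage growth factor, had 21.2, 30.8, 19.9 and 16.4 FPKM, and Adgre1, the F4/80 antigen, 3.71, 6.01, 3.36 and 6.69 FPKM. Of the 22 macrophage genes with a mean of at least 1 FPKM, 10 were highest in tumour 2 and 10 in tumour 4. Over all 13332 genes at that level, tumour 2 was the highest for 24.0% and tumour 4 for 48.4%. Arg1, arginase, had 24.2, 36.9, 7.26 and 8.79 FPKM, higher in tumours 1 and 2. Mrc1 had 1.57, 1.45, 0.915 and 1.02 FPKM and Cd163, a scavenger receptor of resident macrophages, 0.387, 0.409, 0.176 and 0.382 FPKM. Ccr2 and Ly6c2, markers of fresh monocytes, had 0.572, 0.895, 0.344 and 0.581 FPKM for Ccr2 and 0.546, 1.64, 0.876 and 0.832 FPKM for Ly6c2.

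Lymphocyte genes were near the floor. Cd3e, a chain of the T cell receptor complex, had 0.0828, 0.476, 0.341 and 0.254 FPKM, Cd4 0.563, 0.784, 0.342 and 0.449 FPKM and Cd8a 0.202, 0.282, 0.190 and 0.585 FPKM, and tumour 3 was lowest for Cd4 and Cd8a. Gzmb, granzyme B, had 0.298, 0.433, 0.0746 and 0.599 FPKM, Foxp3, the factor of regulatory T cells, 0.0368, 0.190, 0.0540 and 0.116 FPKM, and Ifng, interferon gamma, was listed at 0 in every tumour. Lck, which is not restricted to T cells, had 1.62, 1.33, 0.676 and 0.670 FPKM, the highest of the T cell list in tumours 1, 2 and 3. Ms4a1, a surface protein of B cells, did not pass 0.0429 FPKM, and Ighm, the heavy chain of IgM, had 1.67, 2.46, 1.14 and 1.63 FPKM. With a single fragment on 2 kb worth up to 0.0162 FPKM, the low values rest on few fragments. The lymph node list, with Cxcl13 and Cr2, and the mast cell list stayed under 0.5 FPKM in all members and tumours.

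Neutrophil genes did not move as a set. S100a8, a subunit of calprotectin, had 40.5, 26.6, 13.4 and 39.5 FPKM, and its partner S100a9 had 0.474, 0.0836, 0.278 and 1.89 FPKM. The ratio of S100a8 to S100a9 was 85.5, 318, 48.2 and 20.9. Ly6g, Camp, Ngp and Retnlg, which define neutrophils, did not pass 0.240 FPKM in any tumour, so S100a8 was high without them. Cxcl1 and Cxcl2, chemokines for neutrophils, had 3.10, 1.00, 1.09 and 4.51 FPKM for Cxcl1 and 0.554, 0.0930, 0.0427 and 1.43 FPKM for Cxcl2, and Csf3, the neutrophil growth factor, did not pass 0.423 FPKM.

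Antigen presentation genes of class I were abundant. All 9 reached 1 FPKM in every tumour, with H2-K1 at 693, 1027, 594 and 1136 FPKM and B2m, the shared light chain, at 467, 677, 399 and 1191 FPKM. Tap1, the peptide transporter, was steady without scaling at 33.5, 37.9, 31.6 and 35.5 FPKM. It was not among the 10 steadiest coding genes after scaling. In class II, Cd74, the invariant chain, had 76.9, 257, 129.96 and 164 FPKM and H2-Ab1, a beta chain, 20.7, 68.3, 50.6 and 50.02 FPKM. Tumour 1 was lowest and tumour 2 highest for both. Without scaling, tumour 2 was highest for each of the 6 class II genes with a mean of at least 1 FPKM. Over all 13332 genes at that level it was the highest for 24.0%. H2-Eb1 had 0.527, 1.60, 0.764 and 0.987 FPKM and Ciita, the activator of class II genes, 1.24, 2.67, 1.40 and 1.45 FPKM. Itgax, an integrin of dendritic cells and macrophages, had 3.40, 5.22, 4.00 and 5.10 FPKM, whereas Xcr1 and Clec9a, which mark cross-presenting dendritic cells, did not pass 0.0980 FPKM.

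The genes that the treatments of the wider study address were also measured at baseline. Smo, Smoothened, the protein that sonidegib inhibits, had 15.04, 27.3, 15.3 and 14.4 FPKM, highest in tumour 2. Ptch1, which receives the Hedgehog ligands and is itself induced by them, had 3.45, 4.50, 1.73 and 4.403 FPKM. The targets Gli1 and Hhip were near 0: Gli1 had 0.172, 0.0761, 0.0350 and 0.0802 FPKM and Hhip did not pass 0.00909 FPKM. Of the ligands, Shh and Ihh did not pass 0.0366 FPKM, and Dhh, desert hedgehog, had 13.4, 3.62, 2.07 and 0.535 FPKM, highest in tumour 1 and lowest in tumour 4. Dhh overlaps Rhebl1 on the same strand, so fragments may have been divided between them. Of the 11 Hedgehog genes, 3 reached 1 FPKM in every tumour and 7 stayed under 0.5.

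Cd274, which encodes PD-L1, had 0.320, 0.577, 0.336 and 0.465 FPKM, and Pdcd1, which encodes its receptor PD-1, 0.292, 0.326, 0.201 and 0.387 FPKM. Both stayed under 1 FPKM in every tumour, as did Ctla4, an inhibitory receptor of T cells, at 0.0296, 0.0334, 0.0366 and 0.0130 FPKM. Of 9 checkpoint genes 0 reached 1 FPKM in every tumour. The series title names ceramide synthesis, and the ceramide synthase genes differed widely in level. Cers2, which makes ceramides of very long chains, had 57.4, 67.7, 23.3 and 58.9 FPKM, Cers5 20.8, 19, 7.67 and 19.2 FPKM and Cers6 3.97, 2.78, 1.61 and 1.92 FPKM. Cers4 had 0.279, 0.261, 0.305 and 0.362 FPKM, and its 4 values lay close together without scaling. Tumour 3 was lowest for Cers2, Cers5 and Cers6, as it was before scaling for 81.8% of the 13332 genes with a mean of at least 1 FPKM.

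The spread between tumours was read against that of all genes. The median SD of log2(FPKM + 1) over the 13332 genes with a mean of at least 1 FPKM was 0.543, and 0.350 after scaling. To compare lists, a score was taken for each tumour as the mean deviation of a list's members from their own means, less the median deviation of all these genes, in log2 units. The score takes members with a mean of at least 1 FPKM. Of 11 such muscle genes and 5 such adipocyte genes, 1 each reached 1 FPKM in every tumour. Most therefore passed through tumours in which they were high, and no score is given for these lists. Cartilage genes, chosen after their levels were seen, scored 0.85 in tumour 2 and -0.89 in tumour 4. Mitochondrially encoded genes scored highest in tumour 4 with 1.05, and MHC class II genes lowest in tumour 1 with -0.73. In tumours 2, 3 and 4 the class II genes scored 0.54, 0.57 and -0.34. The scores of glycolytic and hypoxia genes spanned 0.13 and those of immediate early and heat shock genes 0.21.

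**Figure D5:**
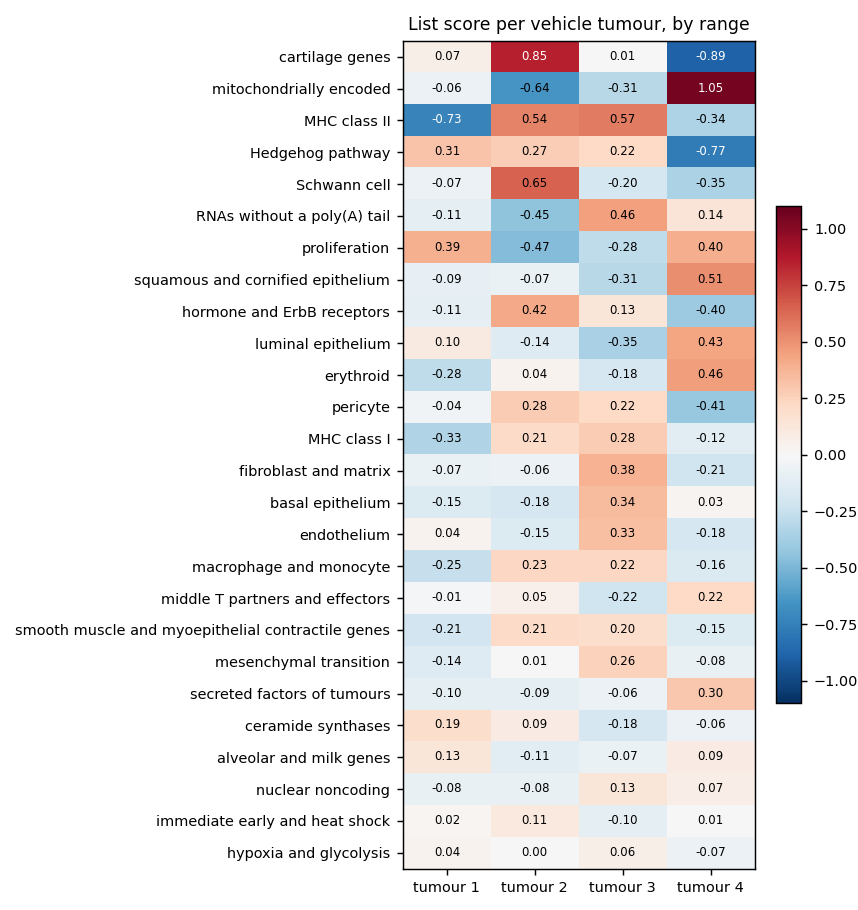
List score of each gene list with at least 3 members at a mean of 1 FPKM, most of which reach 1 FPKM in every tumour, by vehicle tumour, in log2 units, ordered by range. Red is above and blue below the mean of the 4 tumours relative to all genes; cartilage genes are red in tumour 2 and mitochondrially encoded genes in tumour 4.

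Single genes set each tumour apart. At a margin of 4-fold over the next highest tumour, with 1 added to each FPKM, there were 16 named nuclear coding genes in tumour 1, 18 in tumour 2, 0 in tumour 3 and 28 in tumour 4. In tumour 1 the leading genes were those of muscle and fat given above. In tumour 2, Ntng2, a netrin-like membrane protein, had 0.282, 10.7, 0.264 and 0.114 FPKM, Amtn, amelotin of tooth enamel, 0.497, 14.6, 0.874 and 0.127 FPKM and Otoa, otoancorin of the inner ear, 1.46, 14.9, 0.403 and 0.359 FPKM. Caskin2, a scaffold protein, had 20.8, 150.03, 13.1 and 8.16 FPKM and was also among the 15 most variable genes. These 4 were higher in tumour 2 than in any other tumour.

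In tumour 4, Ltf, given above, was among the 5 leading genes with and without scaling. Ptgs2, the inducible cyclooxygenase, had 0.620, 0.831, 0.539 and 11.6 FPKM, Mmp13, a collagenase, 2.57, 3.82, 2.53 and 30.9 FPKM and Anxa1, annexin A1, 24.8, 27.7, 10.8 and 155 FPKM. Fam107b and Ogfrl1 had 1.61, 2.01, 1.87 and 20.2 FPKM for Fam107b and 5.89, 6.002, 3.98 and 42.6 FPKM for Ogfrl1. Muc15, a membrane mucin, had 17.6, 22.7, 10.8 and 120.1 FPKM, Anxa3 24.4, 17.6, 9.55 and 112 FPKM and S100a6 108, 62.1, 34.9 and 352 FPKM. In all of these tumour 4 stood above the other 3, whose values lay nearer to each other. Lowest in tumour 4 were Enho, the gene of the peptide adropin, with 16.2, 46.7, 10.4 and 1.45 FPKM, Eln, elastin, with 5.36, 7.22, 7.22 and 0.746 FPKM and Fzd9, a Wnt receptor, with 11, 11.5, 6.06 and 1.02 FPKM. Scgb2b27, a secretoglobin, and Prom2 had 104, 150.2, 76.0 and 20.8 FPKM for Scgb2b27 and 9.34, 27.4, 7.07 and 1.46 FPKM for Prom2 and were also lowest there.

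Tumour 3 had 2 genes at least 2-fold above all other tumours without scaling and 24 after scaling; tumour 4 had 605 and 211. Tbc1d16, a Rab regulator, had 4.09, 3.43, 13.9 and 2.04 FPKM and Npy, neuropeptide Y, 5.29, 2.14, 10.3 and 2.59 FPKM, both highest in tumour 3. In tumour 3, 1093 of the named nuclear coding genes were at least 2-fold below all other tumours without scaling and 3 after scaling, while in tumour 4 these counts were 49 and 269. Atp5h, a subunit of the mitochondrial ATP synthase, led those of tumour 3 without scaling with 535, 343, 83.2 and 351 FPKM. Without scaling, H2-Q7 of class I, with 12.8, 35.1, 28.2 and 32.2 FPKM, and H2-Aa of class II, with 13.7, 53.7, 29.99 and 30.3 FPKM, were among the 5 genes lowest in tumour 1 relative to the others; after scaling, the 5 held no class I or class II gene. Of the 9 class I genes, 2 were lowest in tumour 1 and 6 in tumour 3. Fragments of H2-Q7 and its close copy H2-Q6 may be shared.

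Some genes split the tumours into pairs. Apoc1, an apolipoprotein, had 33.4, 30.9, 2.79 and 2.38 FPKM and Ncald, a neuronal calcium sensor, 129.99, 112, 16.2 and 12.2 FPKM, high in tumours 1 and 2 and low in 3 and 4. Car6, a secreted carbonic anhydrase, had 51.9, 75.8, 16.03 and 6.86 FPKM with the same split. Kpna2, a nuclear import factor linked to proliferation, had 62.0, 14.2, 6.31 and 59.5 FPKM, high in tumours 1 and 4, and Mt2, a metallothionein, 58.1, 18.1, 6.43 and 71.3 FPKM. C4b, complement C4, had 9.08, 44.4, 16.8 and 2.89 FPKM, highest in tumour 2 and lowest in tumour 4.

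The steadiest genes with a median of at least 10 FPKM gave values close to each other in all 4 tumours without scaling. Col5a2, a minor fibril collagen, had 9.90, 10.1, 9.76 and 11.2 FPKM, Isg15, a ubiquitin-like protein induced by interferon, 34.9, 30.6, 36.7 and 34.9 FPKM and Per1, a clock gene, 13.9, 14.5, 12.9 and 15.8 FPKM. Tumour 3 lay within or close to the range of the other 3 in these genes. After scaling, other genes were the steadiest, among them Atf7ip, a chromatin cofactor, with 13.2, 13.3, 6.79 and 15.6 FPKM as deposited and Spcs2, a subunit of the signal peptidase, with 63.0, 60.7, 32.9 and 73.5 FPKM, and tumour 3 was lowest for both before scaling. Of the 13332 genes with a mean of at least 1 FPKM, 67.7% stayed within 2-fold between the lowest and the highest tumour after scaling, with 1 added to each value.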

How the data were processed

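RNA was sequenced from 16 tumours, of which the 4 vehicle tumours were used. The deposited values are FPKM, which the authors computed per gene; TopHat and Cufflinks, and the builds mm10 and GRCm38.p6, are named per the submitters' processing notes. For versions, annotation and filters, nothing is given in the sources used here. Per the labels' protocols, Qiazol was used for isolation and the stranded libraries were rid of ribosomal RNA; the molecule label says polyadenylated RNA instead, and which is right was not settled. FPKM divides by transcript length and by mapped fragments, so very abundant RNAs lower all other values, and Cufflinks divides fragments between overlapping genes and close copies by a model.

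Columns were matched to tumours by the library number in the descriptions. Of 55146 identifiers, 53992 matched GENCODE M21 with their version and 54547 without it, and biotypes and GRCm38 positions were taken from there. Depth was estimated from the FPKM step of 1 fragment in 4967 genes with a single transcript over 2 kb, less 200 bases for the fragment, and it is approximate because the steps were blurred. Levels are FPKM without scaling, and lists were averaged as log2(FPKM + 1). With 1 group and no comparison against treated tumours, no test between groups was run; the only limit applied was that of Dixon's gap test within the group: SD over 4 tumours describes the spread, which may be technical. Median-of-ratios scaling, quantile normalization, other thresholds and pseudocounts, and leaving out each tumour were tried. Python 3.11.15, pandas 2.3.3 and numpy 2.4.6 were used. The scaling factors, the spread after scaling and the ranking of genes by their excess in a tumour were tested on simulated data. List scores were not tested in this way.

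Named genes are the 30 coding and 10 noncoding genes with the highest median, the 15 most and 10 least variable coding genes with a median of at least 10 FPKM, the 5 highest and 5 lowest in each tumour against the others, and members of 37 lists taken as highest, lowest or most uneven; 2 to 6 a list was the plan, and some lists give more. Lists and members were chosen with earlier results of these data known, and the cartilage list and the gene families after the levels were seen. Of the genes listed, 1 was not analysed here, and a few further genes picked by this rule are left out of the text. RefSeq promoters of GRCm38.p6 were searched for motifs, and 12 of the 17 milk genes matched by symbol.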

Additional observations from a re-analysis of the deposited data

Results flagged for a closer look

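A value was picked out where the highest or the lowest of the 4 tumours lay so far from its nearest neighbour that the gap exceeded the 95% limit of Dixon's gap test for 4 samples, taken as a share of the whole range. Chance gives about 1 in 20 such groups, and 12.2% of 287 genes and lists checked were picked out. Many of these genes were named because a tumour was high, low or apart for them, which raises that share, so it cannot be set against chance. The number after each name is that share of the range.

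Tumour 4 was apart on the high side for Fam107b (0.932), Krt14 (0.922), Vegfa (0.918), Ptgs2 (0.917), Mmp13 (0.858), Ogfrl1 (0.843), Aldh1a3 (0.837) and Csn1s1 (0.832). It was apart on the low side for Col1a2 (0.863) and Eln (0.834). Rn7sk, Retnlg and Ivl each had the whole range (1) because the other 3 tumours were listed at 0. For Rn7sk the value in tumour 4 was 79054 FPKM, while for Retnlg and Ivl it was 0.200 and 0.00624 FPKM.

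Tumour 2 was apart on the high side for Ntng2 (0.940), Col11a1 (0.914), Acan (0.910), Smo (0.905) and Ihh (0.895), and for Hapln1 (1), which was listed at 0 elsewhere. Ntng2 had 0.282, 10.7, 0.264 and 0.114 FPKM and Col11a1 91.7, 228, 97.1 and 89.6 FPKM, whereas Acan, Ihh and Hapln1 were near 0 in every tumour. The list level of B and plasma cell genes was also highest there (0.854), with sums of all members between 2.93 and 5.95 FPKM.

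Tumour 3 was apart on the low side for Stat3 (0.944), Erbb3 (0.928), Cers5 (0.907), Shc1 (0.906), Cd163 (0.893), Yap1 (0.886) and Cers2 (0.844). So were the list levels of fibroblast and matrix genes (0.849), hypoxia and glycolysis genes (0.835), immediate early and heat shock genes (0.833) and ceramide synthases (0.830). The list scores of tumour 3, taken relative to all genes, were 0.38, 0.06, -0.10 and -0.18 for these lists in the same order. Those of fibroblast and of hypoxia genes were the highest of the 4 tumours, and the others the lowest. The scaling factor of tumour 3, 0.583, was the lowest of the 4, and its part in these gaps was not tested. Shh (1) was listed above 0 only in tumour 3, at 0.0109 FPKM.

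Tumour 1 was apart on the high side for the mast cell list level (0.869). Ly6g and Camp (1 each) were listed above 0 only there, at 0.240 and 0.0345 FPKM.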

How the results depend on the processing

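The count of 10949 genes at 1 FPKM in every tumour became 5028 at 5 FPKM, and it lay between 10995 and 12118 when each tumour was left out in turn. The share of the 10 most abundant genes was 10.99% over named nuclear coding genes alone, in place of 49.7%, and 47.6% to 52.3% with a tumour left out. The median SD of 0.543 was 0.350 after median-of-ratios scaling, 0.349 after quantile normalization, 0.663 with a pseudocount of 0.1, 0.0227 without the filter, and 0.367 to 0.602 with a tumour left out; the lowest of these was without tumour 3. Luminal minus basal level, 3.40, was 4.24 with a pseudocount of 0.1, 2.23 with members of a mean of at least 1 FPKM and 4.30 as a median of members, and 3.24 to 3.66 with a tumour left out. Macrophage minus T cell level, 3.18, was 4.90, 2.87 and 2.95 under those settings and 3.12 to 3.27 with a tumour left out. Luminal minus fibroblast level moved by less than 1 SD under each setting tried and was 2.34 to 2.81 with a tumour left out. These 3 differences stayed positive throughout. Of 38 list levels, 28 moved by more than 1 SD with a pseudocount of 0.1, which changes the scale, and 0 with scaling; a mean of 4 cannot move by more than 1 SD when a tumour is left out, so that says nothing of stability. No paired analysis was possible because only 1 group was used and no groups were compared. Values near 0 rest on few fragments, and the depth behind them is approximate.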

Other observations

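Beyond the groups described, genes of the lysosome and of the basement membrane were expressed in every tumour. Ctsd, the main aspartic protease of lysosomes, had 435, 520.3, 225 and 573 FPKM and Ctsb 174, 159, 92.0 and 134 FPKM, and 11 of 18 cathepsin genes reached 1 FPKM in every tumour. Tumour 3 was lowest for both. Col4a1, a chain of basement membrane collagen, had 30.04, 34.7, 37.0 and 35.0 FPKM and was not lowest in tumour 3. Of 11 laminin chain genes 7 reached 1 FPKM in every tumour, with Lamb2 at 29.8, 33.2, 25.1 and 21.8 FPKM. Among integrins, Itga6, the partner of Itgb4, had 70.4, 81.9, 37.6 and 101 FPKM and Itgb1 28.4, 35.6, 15.3 and 110.4 FPKM, which was highest in tumour 4. Of 36 chemokine genes 13 reached 1 FPKM in every tumour, and the transmembrane chemokine Cxcl16 had 13.3, 19.8, 10.3 and 24.5 FPKM.

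Malat1, a nuclear noncoding RNA, had 1525, 2157, 961 and 1913 FPKM. Xist, the RNA of the inactive X chromosome, had 29.2, 48.8, 23.6 and 53.3 FPKM, and the Y-linked genes Ddx3y and Eif2s3y were listed at 0 in every tumour. Uty, also on the Y chromosome, was listed at 0.271, 0.0642, 0.360 and 0.250 FPKM. These values are given without explanation.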
